A study of Homo sapiens with 13 samples.

Results

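The library measured in SW1353 held 995 elements whose names mark them as muscle peaks, of 9769 elements in all. They were chosen by that name, without their scrambled versions, and each covered 200 bp of the hg19 genome. No muscle peak was among the 7236 elements measured in the other cell line of the study, TC28a2, so that the values below come from SW1353 alone. The names call the elements peaks from muscle and give a peak number. They state neither the muscle sample nor the assay that gave the peaks.

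The study tested variants linked to adolescent idiopathic scoliosis, a curvature of the spine, with a lentiviral massively parallel reporter assay (lentiMPRA). SW1353, a human chondrosarcoma line that the labels list as a chondrocyte, received the library by lentiviral infection and was grown for another 48 hours. From the same cells 3 DNA and 3 RNA libraries were then made, with replicate numbers 1 to 3. All 6 libraries carried the same line and the same treatment, and no uninfected or untreated sample was part of the comparison. The labels do not say whether the replicates were separate cultures, so that the p-values measure at most the spread between these samples, which may be technical.

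In a lentiMPRA each candidate sequence sits beside a minimal reporter gene, and a short barcode in the transcript tells which sequence drove it. The RNA count of a sequence over its DNA count measures how strongly it drives transcription, once the DNA count has accounted for how often it was integrated. Regions of accessible chromatin include promoters, which start transcription, and enhancers, which raise it from a distance. Promoters of genes that every cell uses are accessible in most tissues, whereas enhancers are often accessible in few. A muscle peak in SW1353 is therefore a sequence taken from muscle and read in a cell line of another kind.

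The 3 DNA libraries summed to between 15582658 and 15626361 counts and the 3 RNA libraries to between 37571404 and 37631975. Muscle peaks received between 1943911 and 1953286 of the DNA counts and between 5613235 and 5675730 of the RNA counts. Per library, the median muscle peak was counted through 308 to 318 barcodes in DNA and through 178 to 179 in RNA. The deposited tables end at barcode position 500, and 428 of the 993 muscle peaks tested reached that position. These elements have lost an unknown number of barcodes, and each main result is also given without them. Among muscle peaks, counts at the same DNA position correlated between replicates 1 and 2 with r = 0.173 over positions 1 to 10, while replicate 3 and replicate 1 of the next position correlated with r = 0.112. Over positions 201 to 400 these values were 0.153 and 0.152, and in RNA all such correlations were below 0. The values may thus have shifted against the replicate names, and the labelled replicates may mix samples in part. If so, the SDs, SEs and p-values below do not measure the spread between samples and may be too small. Agreement of the 3 labelled replicates would then not show that separate samples agree.

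Activity is given as log2 of the ratio of RNA to DNA, on a scale where the median of 191 scrambled sequences made from variant sites stands at 0. Most muscle peaks lay above this level. In replicates 1, 2 and 3 the median muscle peak stood at 0.81, 0.72 and 0.70, a mean of 0.74 ± 0.06 (SD, n = 3). The 3 replicates gave nearly the same level. In the fit over all replicates the median was 0.68, the lower and upper quartiles were 0.31 and 1.19, and single peaks ranged from -1.20 to 3.92. Values per replicate are set against the scrambled median of each replicate and run about 0.05 above the fitted ones, which are set against the scrambled median of the fit.

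With edgeR's quasi-likelihood test, adjusted by Benjamini-Hochberg over all 9681 elements tested, 630 of 993 muscle peaks were above the scrambled level and 13 below it at an adjusted p under 0.05. That is 63.4% above and 1.31% below, beside 48.8% above and 1.82% below among all elements. All but 1 of the 630 were above the scrambled level in each of the 3 replicates. The exception, at chr6:41041616-41041816, was low in replicate 2. All 3 replicates stood above the scrambled level in 786 muscle peaks and below it in 29, beside 68.6% and 4.85% of all elements. Among the scrambled sequences themselves 24 of 191 were called above and 25 below, so that a call alone separates a sequence from the middle of the scrambled set and not from all of it. By size, 108 muscle peaks were under 0, 286 between 0 and 0.5, 265 between 0.5 and 1, 252 between 1 and 2, 72 between 2 and 3 and 10 over 3. No scrambled variant site exceeded 2, and 5 of 191 lay between 1 and 2. By the mean count per barcode in place of summed counts, tested with limma on the values per replicate, 270 muscle peaks were above and 3 below. This mean takes only barcodes with a count, in RNA and in DNA apart, so that barcodes without RNA counts leave the RNA mean. An element with fewer RNA barcodes per DNA barcode than the scrambled sites thus reads higher by it than by summed counts. The same limma test on summed counts gave 653 and 15. Against the median scrambled muscle peak, 408 were above and 75 below. The share of all elements under these alternatives was not computed, so these counts have no background beside them.

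**Figure D1:**
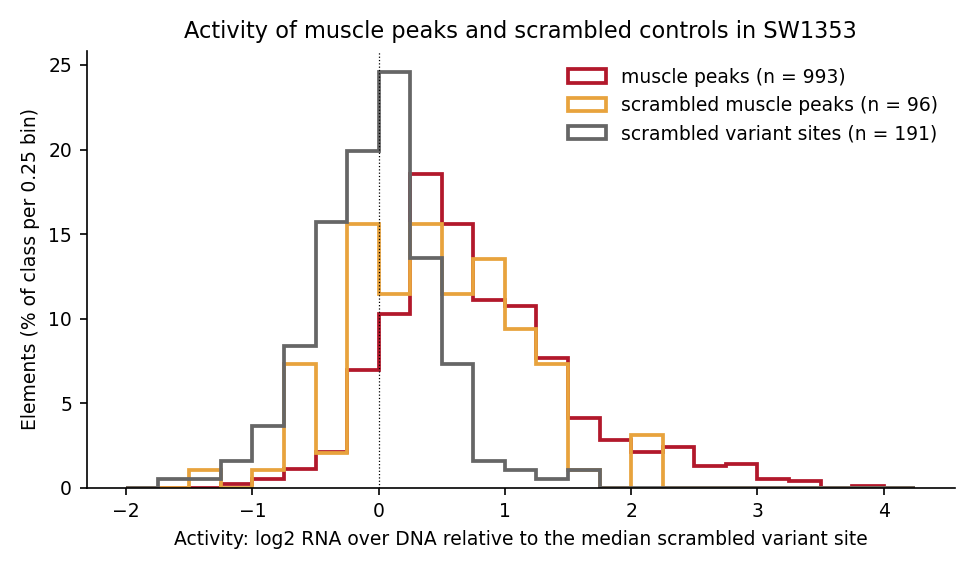
Share of elements (y axis, percent of each class) in bins of activity (x axis, log2 ratio of RNA to DNA, with the median scrambled variant site at 0, bins of 0.25) for 993 muscle peaks, 96 scrambled muscle peaks and 191 scrambled variant sites. The muscle peaks extend furthest to the right, with 72 of them from 2 to 3 and 10 over 3, and the scrambled muscle peaks lie between the other two classes.

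The share of muscle peaks called above the scrambled level moved with the number of barcode positions an element filled in DNA. It was 20 of 150 (13.3%) for elements whose last DNA position lay under 200, 87 of 211 (41.2%) from 200 to 349, 130 of 204 (63.7%) from 350 to 499 and 393 of 428 (91.8%) at 500. The median activity in these ranges was 0.27, 0.42, 0.62 and 1.11. The medians of scrambled variant sites moved in the same order, at -0.12, -0.10, 0.17 and 0.43. Their shares called above were 4.05%, 3.51%, 13.9% and 58.3%, and rose only in the ranges from 350 on. In each range the median muscle peak stood above the median scrambled site. Outside the limit of 500, 237 of 565 muscle peaks (41.9%) were above in the fit over all elements, beside 33.8% of all elements outside the limit, and 248 were above in a fit without elements at the limit, and the level over scrambled sites outside the limit was 0.50 ± 0.02 (SD, n = 3). The correlation of activity with log2 of the DNA barcodes was 0.449 over 993 muscle peaks and 0.269 over the 565 outside the limit. This is a description across elements that share the same libraries.

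**Figure D2:**
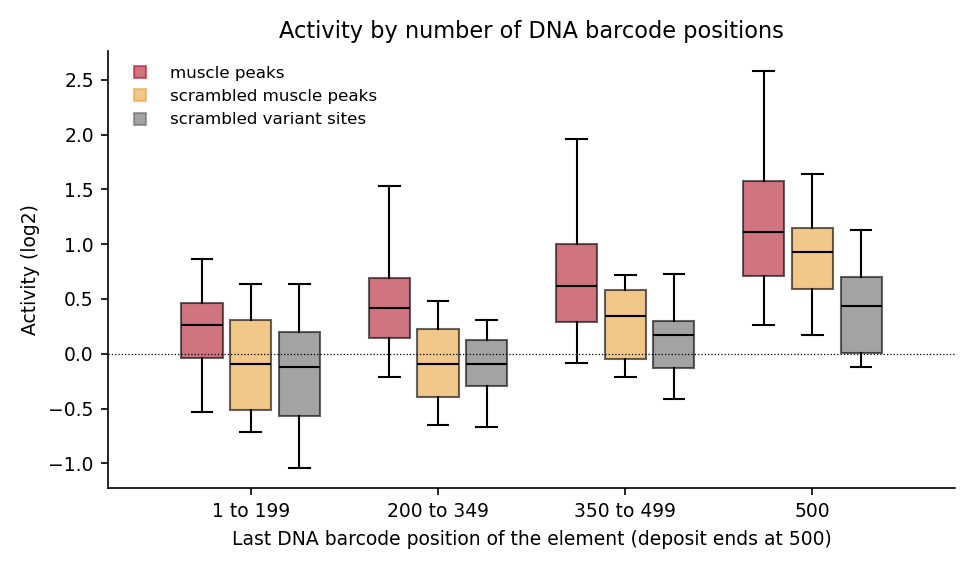
Activity (y axis, log2) by the last DNA barcode position of an element (x axis) for muscle peaks, scrambled muscle peaks and scrambled variant sites; boxes span the quartiles, the line is the median and whiskers reach the 5th and 95th percentiles. The median of muscle peaks goes from 0.27 at the fewest positions to 1.11 at 500, and both scrambled classes also stand highest at 500.

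Other classes of the library set these levels in context. The median muscle peak stood close to the median bone peak (difference -0.05 ± 0.02, SD, n = 3) and lower than the median cartilage peak (difference -0.51 ± 0.02). Outside the limit of 500 the difference from bone peaks was 0.00 ± 0.05, within the spread between replicates, and that from cartilage peaks was -0.25 ± 0.08. Muscle peaks exceeded the reference alleles of variant sites by 0.33 ± 0.0036, and by 0.10 ± 0.05 outside the limit. Scrambled peaks of the other sets were also often above the scrambled level. It was 82.5% of scrambled cartilage and 61.5% of scrambled bone peaks, beside 63.4% of muscle peaks. Muscle minus scrambled cartilage was -0.26 ± 0.04, or -0.11 ± 0.11 outside the limit and 0.09 ± 0.02 at it. Muscle minus scrambled bone was 0.07 ± 0.04, or 0.34 ± 0.06 outside the limit and 0.21 ± 0.01 at it. These differences had no test, since 3 paired values cannot reach an exact p of 0.05. The share of these classes at the limit differed too. It was 43.1% of muscle peaks, 47.5% of bone peaks, 68.5% of cartilage peaks and 13.6% of reference alleles. Of scrambled cartilage and scrambled bone peaks, 75.3% and 59.4% were at the limit. The part of this in the differences was not tested beyond the values given by the limit.

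The 10 highest muscle peaks had fitted activities from 3.06 to 3.92. Genes beside peaks are named from general knowledge of hg19 and only where the place was sure, so that a peak without a gene name may still lie beside one. The strongest of all, at chr17:39845664-39845864, lies beside EIF1, which encodes a factor that helps the ribosome find the start codon. It had 2454, 2537 and 2297 DNA counts and 47333, 47202 and 43976 RNA counts in replicates 1, 2 and 3. Its activity was 4.06, 3.93 and 3.93 by replicate, with all 3 values above those of any other muscle peak in the plot of named peaks. The fitted activity was 3.92 ± 0.07 (SE, n = 3), a 15.2-fold excess over the scrambled level (edgeR adjusted p = 5.91e-10).

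The next peak, at chr1:33283133-33283333, lies between the divergent genes YARS1, the tyrosyl-tRNA synthetase, and S100PBP. It gave 3.51, 3.61 and 3.43 by replicate and a fitted 3.46 ± 0.08 (SE), or 11.0-fold. The peak beside RPLP2, a protein of the large ribosomal subunit, at chr11:809893-810093, gave 3.48, 3.50 and 3.49. Its fitted value was 3.44 ± 0.07 (SE). The replicates of each of these peaks lay within 0.18 of each other. ELOB, a subunit of the elongin complex, had a peak at chr16:2827131-2827331 with 3.22, 3.51 and 3.48. SKIL, a repressor of TGF-beta signalling, had a peak at chr3:170074887-170075087 with 3.45, 3.41 and 3.22.

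The 5 others among the 10 highest lay beside EIF4H (an initiation factor, 3.25), ATF4 (a transcription factor of the stress response, 3.10), PCBP1 (an RNA-binding protein, 3.09), RBM33 (3.08) and RBM39 (a splicing factor, 3.06). The replicates of RBM39 spread most, at 3.53, 2.98 and 2.82. Adjusted edgeR p-values of the 10 lay between 5.91e-10 and 1.71e-08. Of these 10, only the peaks of YARS1 with S100PBP and of SKIL stayed outside the limit of 500. The calls of all 10 held in each alternative in which they were tested.

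Among peaks outside the limit, those 2 were followed by the peak shared by TCP1 and MRPL18, a chaperonin subunit and a mitochondrial ribosomal protein, at chr6:160210667-160210867. It gave 2.95, 3.12 and 2.91 by replicate and a fitted 2.94 ± 0.09 (SE). The peak beside SREBF1, a regulator of lipid synthesis, at chr17:17743353-17743553, gave 2.81, 2.77 and 3.12, with replicate 3 highest. The remaining 6 were beside DDX59 (2.78), at chr22:50328928-50329128 (2.76, no gene named), beside KCTD10 and UBE3B (2.59), HAPSTR1 (2.46) and ARID5B (2.39), and at chr1:17231295-17231495 (2.36, no gene named). The peak on chromosome 22 had the smallest spread of these 10, at 2.84, 2.84 and 2.77 from only 823 to 980 DNA counts per library. These values show that fitted activities over 2 also occurred where no barcode was lost to the limit.

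**Figure D3:**
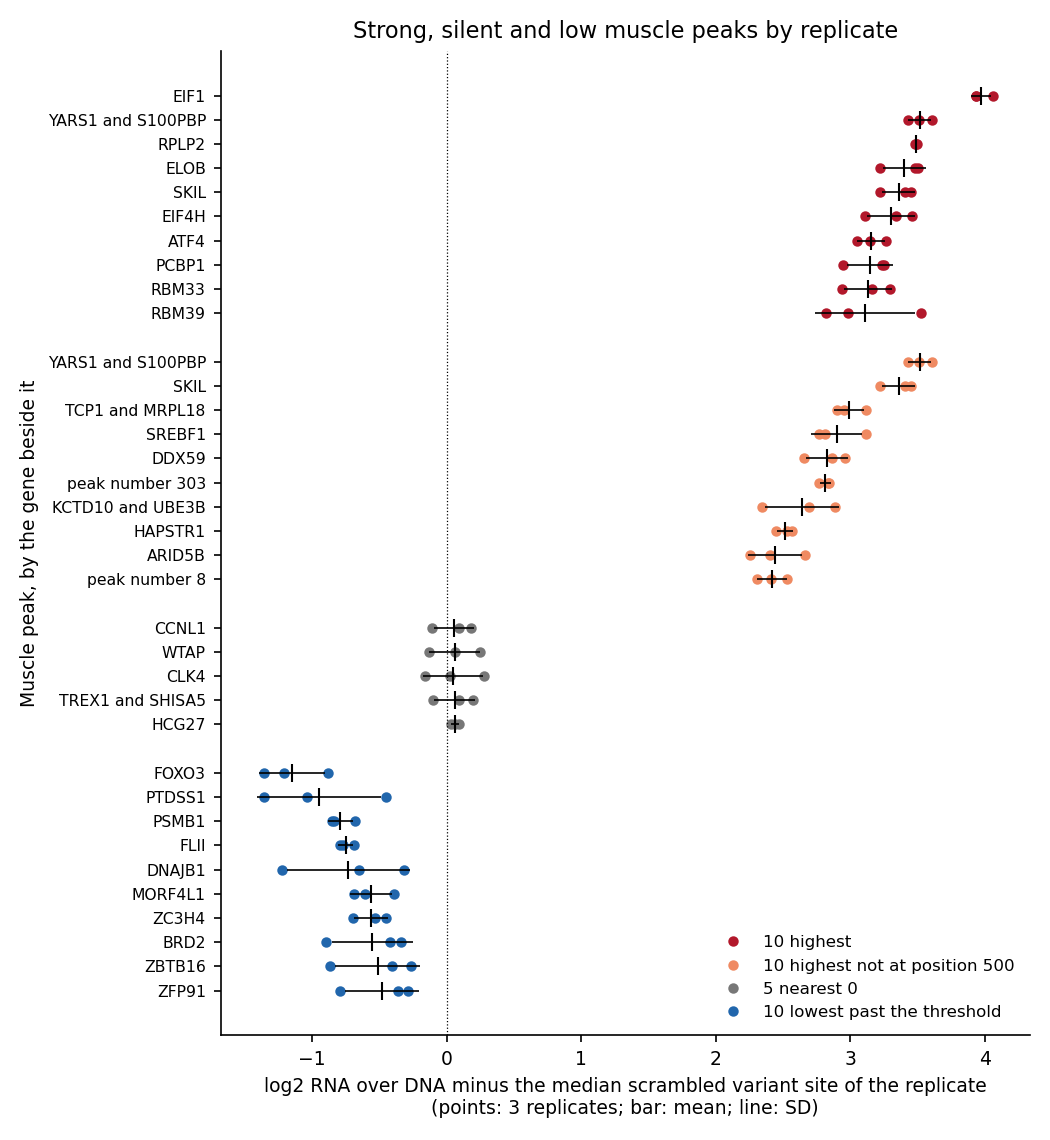
Activity by replicate (x axis, log2 RNA over DNA minus the median scrambled variant site of the same replicate) of named muscle peaks (y axis, by the gene beside them or their peak number); points are the 3 replicates, the bar is their mean and the line their SD. The 10 highest sit between 2.82 and 4.06, the 5 nearest 0 between -0.16 and 0.28, and the 10 lowest between -1.36 and -0.27.

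Low muscle peaks were few and closer to 0 than the strong ones. The lowest, at chr6:108882581-108882781 beside FOXO3, a transcription factor of the forkhead family, had 1792, 1509 and 1628 DNA counts and 893, 996 and 795 RNA counts. It gave -1.21, -0.88 and -1.36 by replicate, all below 0. The fitted activity was -1.20 ± 0.17 (SE, n = 3; edgeR adjusted p = 0.000175), and the call held in each alternative run. The peak beside FLII, an actin-binding regulator, at chr17:18162768-18162968, gave -0.69, -0.77 and -0.80 and a fitted -0.80 ± 0.13 (edgeR adjusted p = 0.000574). With the mean count per barcode FLII gave -0.21 (limma adjusted p = 0.281) and lost its call.

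The others of the 10 lowest had fitted activities from -1.0 to -0.53. They lay beside PTDSS1 (a phosphatidylserine synthase), PSMB1 (a proteasome subunit), DNAJB1 (a heat-shock co-chaperone), MORF4L1 (a chromatin protein), ZC3H4, BRD2 (a bromodomain protein), ZBTB16 (a zinc-finger transcription factor) and ZFP91. Each was below 0 in 3 of 3 replicates, as the rule for naming them required. Still, DNAJB1 ranged from -1.23 to -0.32 and PTDSS1 from -1.36 to -0.45. All 8, taken by the mean count per barcode, lost their calls, and PTDSS1 stood at 0.44 and ZC3H4 at 0.02. Calls for PSMB1, MORF4L1, ZC3H4, ZFP91, DNAJB1 and ZBTB16 were also lost when at least 1 of the replicates was left out. In a fit without elements at position 500, ZC3H4 and ZFP91 lost their calls (edgeR adjusted p = 0.0734 and 0.0669). That fit called 9 muscle peaks below. ZC3H4 lost its call with DESeq2 too (adjusted p = 0.0556). Without replicate 3 the number of muscle peaks called below was 7 in place of 13. The peak of PSMB1 rested on only 319 to 375 DNA counts per library. The 3 further peaks below the scrambled level lay beside SARAF (-0.48), SLC25A25 (-0.44) and CD59 (-0.39), and are given to complete the 13.

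Silent peaks, those nearest 0 among 460 with at least 100 DNA barcodes in each replicate and none at the limit, lay beside CCNL1 and CLK4, which act in splicing control, WTAP, a subunit of the RNA methyltransferase complex, TREX1 with SHISA5, and HCG27. The CCNL1 peak, at chr3:156878309-156878509, had 1150, 1280 and 1252 DNA counts and 1505, 1659 and 1451 RNA counts. Its activity was 0.18, 0.09 and -0.11, on both sides of 0, with a fitted 0.00 ± 0.16 (SE, n = 3). The HCG27 peak gave 0.03, 0.06 and 0.09 and was the tightest. Against the median of the scrambled muscle peaks, WTAP, TREX1 with SHISA5 and HCG27 stood at -0.43 each and CLK4 and CCNL1 at -0.44 each. WTAP, TREX1 with SHISA5, HCG27 and CLK4 were then called below (edgeR adjusted p = 0.0479, 0.0303, 0.0449 and 0.0431), and CCNL1 was not.

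Peaks beside genes of fixed lists of muscle, cartilage and housekeeping genes numbered 11. Of the 3 beside muscle genes, 1 was above the scrambled level, beside 63.4% of all muscle peaks and 48.8% of all elements. That peak, at chr1:156469441-156469641 beside MEF2D, a transcription factor of muscle differentiation, gave 0.80, 0.67 and 0.40 and a fitted 0.57 ± 0.10 (SE; edgeR adjusted p = 0.000863). Its call was lost by the mean count per barcode (0.04) and against the scrambled muscle peaks (0.14). The peak beside ACTN2, a sarcomere actinin, gave 0.51, 0.31 and 0.23 (fitted 0.30, adjusted p = 0.134), and that beside MYLPF, a fast-muscle myosin light chain, gave 0.31, 0.27 and 0.21 (fitted 0.21, adjusted p = 0.263). All replicates of these 3 peaks were above 0, but with edgeR neither ACTN2 nor MYLPF passed the threshold.

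The other 8 peaks lay beside EIF1 and ribosomal protein genes. EIF1 (3.92), RPLP2 (3.44), RPL27A (2.90), RPS21 (1.02) and RPL21 (0.37, adjusted p = 0.0153) were above the scrambled level with edgeR. RPS13 (0.19), RPLP1 (0.16) and RPS2 (0.01) did not pass. These 5 of 8 stand beside 63.4% of all muscle peaks. With the mean count per barcode RPS21 stood at 0.30 and lost its call (limma adjusted p = 0.115). Without the highest barcode of each library RPS13 stood at 0.31 and passed (edgeR adjusted p = 0.0144). Ribosomal protein genes are transcribed at high rates in dividing cells, yet their peaks here ranged over most of the scale. RPL21 was called by edgeR at the limit of 500 and lost its call without replicate 2 or 3, and by the mean count per barcode stood at -0.24. The peaks beside the nuclear noncoding RNAs NEAT1 and MALAT1, named after their values were seen, stood at 0.97 and 1.20.

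For 95 muscle peaks the library held the same region scrambled, and here the comparison was with the peak's own bases in another order. The native peak was higher in 32 pairs and lower in 7, and 56 did not pass (edgeR interaction test, adjusted over all 457 such pairs of the library). Over all pairs 30.4% were higher and 9.19% lower, so that muscle pairs were near the background. The median difference was 0.29, and it was above 0 in 65 pairs. Of the 43 pairs outside the limit of 500, 13 were called higher and 1 lower in the fit over all pairs, and 9 and 1 in a fit without elements at the limit. In 44 pairs both the native and the scrambled version were above the level of the scrambled variant sites. The scrambled muscle peaks as a class were thus not at 0. Of 96 tested, 51 were above and 9 below, and the median muscle peak exceeded the median scrambled muscle peak by 0.25 ± 0.05 (SD, n = 3), and by 0.38 ± 0.15 outside the limit. Taken by the mean count per barcode, 14 pairs were higher and 2 lower.

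**Figure D4:**
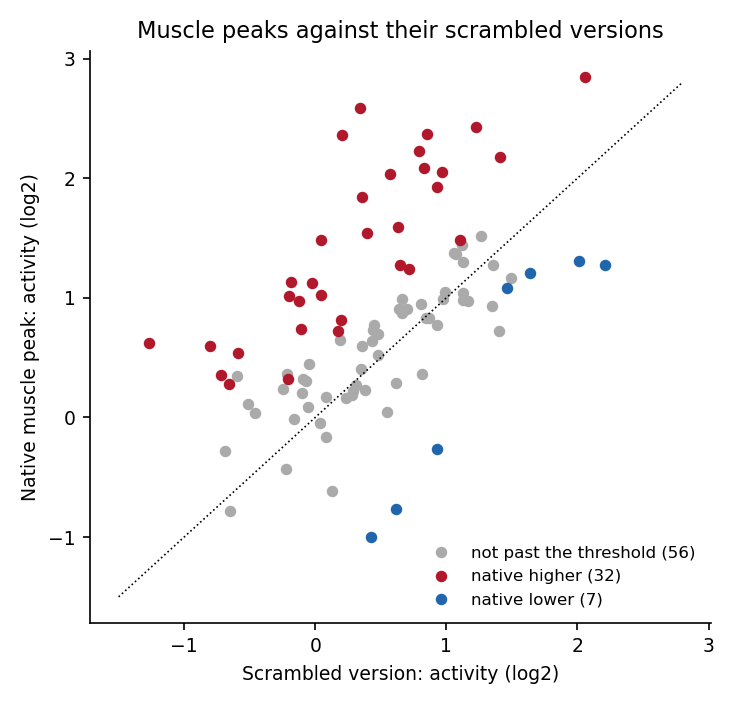
Activity (log2) of 95 native muscle peaks (y axis) against their scrambled versions (x axis), with the dotted line of equal values; colours mark pairs past the edgeR threshold. The 32 native-higher pairs lie above the line, the 7 native-lower pairs below it, and values of both versions go up together (r = 0.519).

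The largest loss on scrambling was at the peak between the divergent genes KCTD10 and UBE3B, at chr12:109914985-109915185. KCTD10 and UBE3B both act in ubiquitin ligation. The native peak gave 2.89, 2.69 and 2.35 by replicate and its scrambled version 0.64, 0.24 and 0.31, with no overlap between them. The difference was 2.25 ± 0.16 (SE, n = 3; edgeR adjusted p = 6.5e-08), and neither element was at the limit. The peak at chr1:17231295-17231495 gave 2.53, 2.41 and 2.31 against -0.11, 0.65 and 0.24, a difference of 2.16 ± 0.18 (SE). RBM18, which encodes an RNA-binding protein, had a peak at 0.62 and a scrambled version at -1.27, the lowest of the scrambled muscle peaks. The peaks beside SFT2D1 (2.37 against 0.85) and EIF4G1 (1.84 against 0.36), a scaffold of translation initiation, followed. Of these 5 differences, that of RBM18 lost its call by the mean count per barcode (0.48). The pairs of SFT2D1 and EIF4G1 each had an element at the limit, while those of RBM18 and chr1:17231295-17231495 had none.

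In the other direction, the peaks beside SMG1, a kinase of nonsense-mediated decay, and H3-3A, a histone gene, were active in both forms and higher when scrambled. The SMG1 peak gave 1.44, 1.30 and 1.24 and its scrambled version 2.38, 2.18 and 2.23, again without overlap (difference -0.94 ± 0.12, SE; edgeR adjusted p = 2.26e-05). For H3-3A the fitted values were 1.31 and 2.01, and with the mean count per barcode the difference was -0.51 and lost its call (limma adjusted p = 0.0904). The peak shared by TTI1 and RPRD1B stood at -0.27 against 0.93, where the scrambled replicates were spread from 0.50 to 1.75. Its difference lost its call with the mean count per barcode (-0.84, limma adjusted p = 0.168) and with limma on summed counts (adjusted p = 0.0648). The peak between MRPL23 and H19 stood at -0.77 against 0.61, on 426 DNA counts in all. That beside PTDSS1 stood at -1.0 against 0.42, and by the mean count per barcode its difference turned to 0.64. PTDSS1 had 1926 DNA counts and its scrambled version 9395. The pairs of SMG1, H3-3A, TTI1 with RPRD1B, and PTDSS1 each had an element at the barcode limit. Their differences could thus not be tested without such elements. Among the pairs named in this direction, only that of MRPL23 with H19 lay outside the limit.

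Overlap with the other peak sets of the library gave a second view of the same regions. Of the 995 muscle peaks, 69 overlapped a cartilage peak only, 69 a bone peak only, 18 both and 839 neither, and no muscle peaks overlapped each other. Those that overlapped cartilage peaks had a median of 1.27, with 87.0% above the scrambled level. Those that overlapped bone peaks had a median of 0.65, those with both 1.48 and those with neither 0.62 (61.0% above). The share at the limit of 500 was 64.5% with any overlap and 39.1% without. It was 66.7% with cartilage peaks only, 58.8% with bone peaks only and 77.8% with both. Outside the limit the medians with any overlap and without were 0.48 (55 peaks) and 0.41 (510 peaks). The kinds of overlap were not taken apart outside the limit. The share above the scrambled level varied with chromosome from 42.9% of 7 peaks on the X to 90.9% of 11 on chromosome 21. It did not order by the peak number in the names, with 60.2% to 65.3% above in each range of the peak number (r = -0.0147 with activity over 993 peaks).

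Elements that overlap share bases, so that the pairs read the same region through shifted windows. In 171 tested pairs of a muscle peak with a cartilage or bone peak, 82 differed past the edgeR threshold, 43 with the muscle peak higher and 39 lower, beside 50.7% of all 286 overlapping pairs of the library. The share that differed varied with the offset between the starts, without rising at each step. The share of all overlapping pairs in these offset ranges was not computed, so that the counts have no background by offset. At offsets under 20 bp, 0 of 17 pairs differed at an adjusted p under 0.05, and the values correlated with r = 0.976. From 20 to 49 bp it was 10 of 27 (r = 0.85), from 50 to 99 bp 12 of 39 (r = 0.599) and from 100 to 199 bp 60 of 88 (r = 0.379). The median size of the difference was 0.14 at the smallest offsets and 0.67 at the largest. Outside the limit of 500 the counts were 0 of 5, 0 of 4, 3 of 12 and 8 of 15. These correlations describe elements of the same libraries and partly the same bases.

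**Figure D5:**
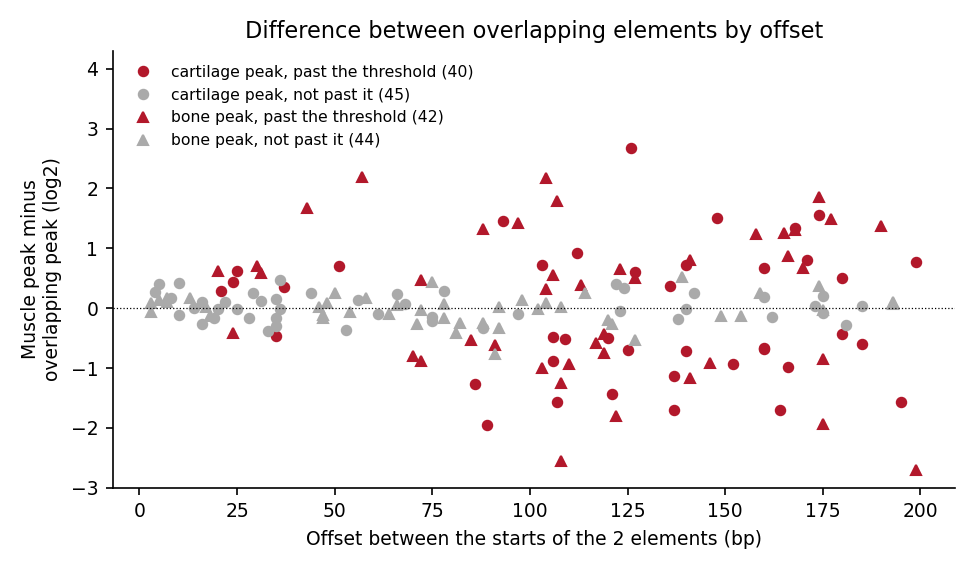
Difference in activity (y axis, log2, muscle peak minus the overlapping cartilage or bone peak) by the offset between the starts of the elements (x axis, bp) in 171 pairs; colour marks pairs past the edgeR threshold and shape the partner. Differences stay within 0.42 of 0 under an offset of 20 bp and reach 2.70 at an offset of 199 bp.

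The 5 muscle peaks with the largest overlap lay beside ZNF787, PAIP1, SFPQ, FLCN and PPP1R15A, with 195 to 197 of 200 bp shared. SFPQ encodes a splicing factor, PAIP1 a protein that binds the poly(A)-binding protein, and FLCN the tumour suppressor folliculin. The PAIP1 peak and its bone partner, 3 bp apart, gave fitted values of 1.79 and 1.86. Those of ZNF787 gave 0.43 and 0.34, those of SFPQ 1.36 and 1.09, those of FLCN 0.22 and 0.09 and those of PPP1R15A, the stress-response phosphatase subunit, 0.41 and 0.01. None of these 5 pairs passed the threshold with edgeR, and the sizes of their differences ran from 0.07 to 0.40.

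The pairs named next were picked from those with large differences after their values were seen, and they do not cover all of the largest. At HSPA8, which encodes a constitutive heat-shock chaperone, 3 elements stepped along the region. The muscle peak, at chr11:122933303-122933503, gave 1.89, 1.96 and 1.74 by replicate. The cartilage peak, which starts 25 bp further along the chromosome, had a fitted 1.19, and the bone peak, which starts 57 bp further, gave -0.20, -0.22 and -0.56. Against the muscle peak's fitted 1.81 these were differences of 0.62 ± 0.17 (SE; edgeR adjusted p = 0.00394) and 2.19 ± 0.15 (SE; edgeR adjusted p = 3.37e-10). The bone element thus shared 143 bp with the muscle element and stood below the scrambled level in 3 of 3 replicates.

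A similar step was seen at PPP1CB, a phosphatase catalytic subunit, where the muscle peak at chr2:28974847-28975047 stood at 1.5 and the bone peak, 43 bp further along, at -0.17. At PPIA, which encodes cyclophilin A, the muscle peak at chr7:44837017-44837217 stood at 2.33 and the bone peak 104 bp further along at 0.16. The replicates were 2.46, 2.31 and 2.37 against 0.21, 0.20 and 0.22, with no overlap. At EIF4H the muscle peak stood at 3.25 and the cartilage peak 126 bp further along at 0.57. In each of these pairs the muscle element was the stronger window.

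Elsewhere the muscle element was the weaker window. At MALAT1 the muscle peak, at chr11:65264775-65264975, gave 1.53, 1.42 and 0.81 and the bone peak, which shares 1 bp with it, 3.88, 4.06 and 3.92. The difference was -2.70 ± 0.14 (SE; edgeR adjusted p = 2.02e-11). At UBE2D3, a ubiquitin-conjugating enzyme gene, the muscle peak at chr4:103747769-103747969 stood at 0.32 and the cartilage peak 89 bp further along at 2.26, with neither at the limit of 500. At PPP2R1A, a phosphatase scaffold gene, the values were 0.96 and 2.76 at an offset of 122 bp. The low muscle peak of PTDSS1 was flanked by active ones, the cartilage peak that starts 137 bp before it at 0.71 and the bone peak that starts 108 bp after it at 1.55. By the mean count per barcode the difference from the bone peak was -0.29 (limma adjusted p = 0.19) and lost its call. The 9 other largest differences, not all of them named here, kept theirs in each alternative in which both elements were tested. Only the UBE2D3 pair among them was tested without elements at position 500, since the others had an element there. The PPP1CB pair and the HSPA8 pair with the cartilage peak also had one there. They are not among these largest differences and have no alternative values here.

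Some strong peaks had partners of like activity at larger offsets. The RBM39 muscle peak and its bone partner, 108 bp apart, gave 3.06 and 3.04, the RBM33 peak and its cartilage partner, 97 bp apart, 3.08 and 3.18, and the BZW1 peak and its bone partner, 78 bp apart, 2.99 and 2.91. The differences were 0.02 ± 0.14, -0.10 ± 0.11 and 0.08 ± 0.12 (SE), and none of the 3 passed the edgeR threshold (adjusted p = 0.943, 0.487 and 0.665). These pairs too were named after their values were seen.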

How the data were processed

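The authors deposited raw counts per barcode as whole numbers, for at most 500 positions of each element and replicate. The submitters' processing notes name hg19 as the build, and coordinates are printed as in the element names. The counting program was not given in the sources used here. Neither is it known whether a count is a read or a molecule, so that errors cover only counting and the spread between labelled replicates. These replicates may mix samples in part. No hg19 genome was used, so that sequences, exons and motifs were not analysed here. For control elements the columns of both alleles hold the same values, and those of the reference allele were used.

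Counts were summed per element and replicate. Elements needed at least 10 DNA barcodes in every replicate, which left out 2 muscle peaks. RNA over DNA was fitted with edgeR 4.0.16 (quasi-likelihood, two-sided, R 4.3.3) over 9681 elements, with TMM factors, the replicate as a block, and the null at the median scrambled variant site. P-values were adjusted by Benjamini-Hochberg with a threshold of 0.05. Values per replicate use a pseudocount of 0.5. DNA and RNA of a replicate came from the same cells, per the labels' protocol, which is the source of the pairing. Deviations of DNA and RNA of the same number correlated with r = 0.0231, 0.00115 and -0.00126 over elements. Pairs of native and scrambled, or of overlapping, elements were tested as an interaction.

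Named peaks were the 10 highest, the 10 highest outside position 500, the 10 lowest past the threshold, the 5 nearest 0 with 100 or more barcodes, the 5 largest differences each way from scrambled versions, the 5 largest overlaps and up to 10 beside listed genes; RPS2, the 11th, is given to complete the list. The highest and lowest peaks also had to pass the threshold and lie on the same side of 0 in 3 of 3 replicates. The members and lists were chosen with earlier results of these data known. Alternatives covered barcode filters, position 500, the highest barcode, the mean count per barcode (limma on values per replicate), DESeq2 1.42.0, limma 3.58.1, other references, the block and each replicate left out. The edgeR tests of activity and of native against scrambled pairs were also run on simulated counts. The simulation did not model the limit at position 500 or a mixing of replicates. The other tests were not simulated.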

Additional observations from a re-analysis of the deposited data

How the results depend on the processing

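The number of muscle peaks above the scrambled level was 630. In a fit without elements at position 500 it was 248 of 565, with 9 below. That fit had 9 pairs native higher, 1 native lower, 11 of 36 overlapping pairs different and a level of 0.50. By the mean count per barcode it was 270 with 3 below, 14 pairs native higher, 2 native lower and a level of 0.26, tested with limma; the same test on summed counts gave 653 above and 15 below, 24 pairs native higher and 5 lower, and 79 overlapping pairs different. Against scrambled muscle peaks it was 408 with 75 below (level 0.25), and against all elements 398 with 81 below (level 0.21). DESeq2 gave 658 above and 13 below, and limma 642 and 15. With each replicate left out, 594 to 606 were above and 7 to 12 below, the 7 without replicate 3, with 24 to 26 pairs native higher, 6 to 8 lower, 64 to 72 overlapping pairs different and a level of 0.71 to 0.77. Without the pairing of DNA and RNA (no replicate block), 636 were above and 17 below, 33 pairs native higher and 7 lower, and 84 overlapping pairs different. The share of all elements called was computed in the main fit only, so the counts of other fits have no background beside them. Of 997 values of 73 single results under the alternatives, 933 counted as unchanged, 39 lost their call, 11 gained one and 14 reversed. Unchanged values kept direction and side of the threshold, or were activities that changed sign without passing the threshold in either fit. CCNL1 against scrambled muscle peaks was among the latter. By the mean count per barcode PTDSS1 (0.44), ZC3H4 (0.0184), RPL21 (-0.24) and the native minus scrambled value of PTDSS1 (0.64) reversed. Against scrambled muscle peaks WTAP (-0.43), TREX1 with SHISA5 (-0.43), HCG27 (-0.43), ZNF787 (-0.00195) and RPL21 (-0.0692) did, and against all elements the same peaks did (-0.45, -0.45, -0.45, -0.0201 and -0.0873). The cause was not tested, except that fewer elements were tested outside position 500. The peak between MRPL23 and H19 rested on 426 DNA counts. Alternatives for overlapping pairs and the limma test on summed counts were chosen after seeing the data.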
